A study of Homo sapiens with 12 samples.

Results

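The genes described here are FFAR4, KCNK12, LGR6, SHH and NAALADL2, 5 of the 60651 genes in the count table. They were chosen on the readout, as the largest decreases outside the replication-dependent histone genes when EGI-1 cells given decitabine and talazoparib together were set against vehicle-treated EGI-1 cells. EGI-1 and HUCCT1 are established human cholangiocarcinoma cell lines, both labelled wild type, and RNA sequencing was analysed in 12 libraries of them. For 72 h, EGI-1 cells were exposed to vehicle (DMSO), to 0.5 µM decitabine, to 200 nM talazoparib or to both agents at these doses. The HUCCT1 cells were exposed to DMSO or to 1 µM decitabine over the same time. Each of these arms holds 2 libraries, and no talazoparib or combination library of this line was analysed. Decitabine is a cytidine analogue that traps DNA methyltransferases, and talazoparib inhibits and traps poly(ADP-ribose) polymerase. The labels do not say that the libraries of an arm came from separate cultures, so p-values measure only the spread between these libraries, which may be technical.

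The genes belong to different pathways. SHH is a secreted hedgehog ligand that binds the receptor PTCH1 and thereby releases SMO, which activates the GLI transcription factors. FFAR4 is a G protein-coupled receptor for long-chain fatty acids, and LGR6 is a receptor for R-spondins, which strengthen Wnt signalling by removing the ubiquitin ligases RNF43 and ZNRF3 from the cell surface. KCNK12 belongs to the family of two-pore-domain potassium channels. NAALADL2 is a membrane protein of the family that holds FOLH1 (prostate-specific membrane antigen) and the transferrin receptors. Hedgehog and Wnt ligands act in the growth of bile duct epithelium, and both pathways have been studied in cholangiocarcinoma.

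The ranking behind the choice took genes with an adjusted p under 0.05 in the edgeR quasi-likelihood test with Benjamini-Hochberg adjustment, an average of at least 1 log2 CPM (a gene's count scaled to the library total), and both combination libraries below both vehicle libraries. Of 1429 such genes, FFAR4 came first at a log2 fold change of -2.06, followed by KCNK12 (-1.51), LGR6 (-1.50), SHH (-1.43) and NAALADL2 (-1.43). The genes just outside were ENSG00000261578 at -1.43, MAP2K6 at -1.42 and SSBP2 at -1.35, so the border fell inside a run of nearly equal values. Without the minimum average, which was set with earlier results in view, 1652 genes qualified and the 5 genes took ranks 30, 82, 84, 92 and 94. They are therefore the largest decreases among the better-counted genes, not among all genes. In that comparison 18.7% of the 22406 genes tested were called and 7.61% were called lower. Since the choice used this comparison, its values are a description for these genes and carry no test.

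Totals ran from 23139065 to 33181930 counts in EGI-1 and from 32519985 to 34965627 in HUCCT1. The 7 biliary epithelial markers were above 3 counts in every library, and their summed level was 8225 to 9163 CPM in EGI-1, and in HUCCT1 13164 and 14586 CPM with vehicle and 7969 and 9135 CPM with decitabine. The 4 hepatocyte markers summed to at most 0.210 CPM in any library. The 5 fibroblast markers summed to 30.1 to 52.2 CPM in EGI-1, and in HUCCT1 to 33.7 to 33.9 CPM with vehicle and 149.8 to 175.3 CPM with decitabine. Most of these sums was COL1A1, at 143.1 and 169.1 CPM with decitabine in HUCCT1. There PDGFRB and DCN were also higher with decitabine, while LUM went from 9.38 and 6.55 CPM to 4.22 and 3.44 CPM. The 4 endothelial markers summed to 20.9 to 31.2 CPM in EGI-1, and in HUCCT1 to 3.79 to 4.97 CPM with vehicle and 23.2 to 24.2 CPM with decitabine. EGI-1 combination replicate 2 stood apart: its 4 leukocyte markers summed to 18.6 CPM against 0.0378 to 0.634 CPM in the other EGI-1 libraries, with 381 counts of PTPRC and 148 of CD3E. A list of 10 T cell genes, chosen after this was seen, summed to 120.4 CPM there against 31.9 to 54.8 CPM in the others, with 10 of 10 genes above 3 counts. Its part in the results was not tested. Without that library the log2 fold changes of the combination against vehicle were -2.22 for FFAR4, -1.29 for KCNK12, -1.34 for LGR6, -1.30 for SHH and -1.18 for NAALADL2.

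Because decitabine acts on methylated CpG sites, the sequence at the start of transcription is shown for 3 of the genes, chosen to span their CpG content. The sequences are from RefSeq (GRCh38.p14), which gave an entry for 4 of the 5 genes (FFAR4, LGR6, SHH and NAALADL2). Each runs 5′ to 3′ on the gene's own strand, from 250 bases before the start to 50 after it, and capitals mark CpG dinucleotides. The window of FFAR4 lies at chr10:93566415-93566714 on the plus strand, that of SHH at chr7:155812414-155812713 on the minus strand, and that of NAALADL2 at chr3:174859084-174859383 on the plus strand, inside the gene as GENCODE draws it.
FFAR4: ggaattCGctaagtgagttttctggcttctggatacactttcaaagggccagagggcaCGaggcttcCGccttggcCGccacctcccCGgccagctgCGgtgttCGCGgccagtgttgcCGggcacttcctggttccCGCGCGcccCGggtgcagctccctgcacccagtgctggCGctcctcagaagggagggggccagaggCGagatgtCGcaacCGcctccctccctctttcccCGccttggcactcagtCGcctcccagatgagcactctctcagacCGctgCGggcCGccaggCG
SHH: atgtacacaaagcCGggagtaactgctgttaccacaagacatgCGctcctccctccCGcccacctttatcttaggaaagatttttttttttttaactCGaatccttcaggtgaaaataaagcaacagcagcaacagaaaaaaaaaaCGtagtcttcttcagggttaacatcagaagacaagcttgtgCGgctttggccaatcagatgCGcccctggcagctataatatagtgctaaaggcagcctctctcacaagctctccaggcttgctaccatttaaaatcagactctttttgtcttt
NAALADL2: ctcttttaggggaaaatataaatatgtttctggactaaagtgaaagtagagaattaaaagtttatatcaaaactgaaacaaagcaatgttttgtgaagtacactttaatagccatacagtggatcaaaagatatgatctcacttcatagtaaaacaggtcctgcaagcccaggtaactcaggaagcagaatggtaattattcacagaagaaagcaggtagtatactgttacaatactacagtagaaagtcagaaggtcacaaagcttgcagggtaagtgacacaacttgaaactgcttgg
The FFAR4 window held 23 CpG sites at 67% GC, more sites than 64.2% of the 35116 promoter windows of the same length, whose median was 14. SHH had 7 sites, more than 36.8% of the windows, and NAALADL2 had none. The 3 start sites of LGR6 held 11, 5 and 9 sites. The windows thus ran from 23 CpG sites to none, the last at a start inside NAALADL2 as GENCODE draws it. The upstream end of that gene model was not examined, and KCNK12 had no window. Which start EGI-1 cells use was not tested. Methylation was not measured in these libraries.

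A set of 5 short motifs were searched on both strands in the 6 windows of the 4 genes. FFAR4 held 1 copy of TTCCCGC, the core bound by E2F factors, which 6.55% of all windows hold, and 1 of TTTGAA, the cell cycle homology region, which 15.2% hold. SHH held 1 CCAAT box and 1 GC box (GGGCGG), found in 34.6% and 45% of all windows. NAALADL2 held 2 copies of TATAAA, which 11.5% of windows contain, and the second LGR6 start held 1 CCAAT box. No motif was shared by all 4 genes. These matches describe letters, not bound sites.

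SHH (ENSG00000164690.8, chr7:155799980-155812463 on the minus strand of GRCh38) was the most abundant of the 5 per length in vehicle-treated EGI-1 cells, at 3.56 ± 0.17 CPM per kb of exon (SD, n = 2). Its levels were 19.2 and 18.0 CPM with vehicle, 13 and 16.4 with decitabine, 10.0 and 8.46 with talazoparib, and 7.54 and 6.30 with the combination. The arms did not overlap and stood in that order. Mean levels were 78.9% of vehicle with decitabine, 49.6% with talazoparib and 37.2% with the combination. The log2 fold change against vehicle was -0.34 (SE 0.13) with decitabine, -1.02 (SE 0.14) with talazoparib and -1.43 (SE 0.14) with both. The combination departed from the sum of the single-agent changes by -0.07 (SE 0.20), which is within its standard error, and by -0.23 or 0.12 without decitabine replicate 1 or 2. In bulk RNA, fewer cells with a transcript and less transcript per cell cannot be told apart.

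FFAR4 (ENSG00000186188.11, chr10:93566665-93604480, plus strand) stood second per length at 2.07 ± 0.10 CPM per kb (SD, n = 2). Its levels were 8.69 and 8.10 CPM with vehicle, 4.30 and 6.80 with decitabine, 4.52 and 4.23 with talazoparib, and 1.80 and 2.20 with the combination. The combination libraries lay below all others, whereas decitabine and talazoparib overlapped each other. The mean was 66.1% of vehicle with decitabine, 52.1% with talazoparib and 23.8% with both. Log2 fold changes against vehicle were -0.60 (SE 0.19), -0.94 (SE 0.19) and -2.06 (SE 0.21) in the same order. The departure from the sum of the single-agent changes was -0.51 (SE 0.29), and it was -0.81 or -0.14 without decitabine replicate 1 or 2. The 2 decitabine libraries differed widely, and the decitabine change ranged from -0.97 to -0.30 when either was left out.

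LGR6 (ENSG00000133067.18, chr1:202193799-202319781, plus strand) followed per length at 1.62 ± 0.14 CPM per kb (SD, n = 2). It gave 7.13 and 8.06 CPM with vehicle, 5.60 and 8.88 with decitabine, 4.09 and 3.54 with talazoparib, and 3 and 2.41 with the combination. Vehicle and decitabine overlapped, and the talazoparib and combination libraries lay below both. Decitabine left a mean of 95.3% of vehicle, talazoparib 50.2% and the combination 35.6%. The log2 fold change was -0.07 (SE 0.19) with decitabine, and it was -0.44 or 0.23 when a decitabine library was left out, so its direction rests on which library is used. With talazoparib it was -1 (SE 0.20) and with the combination -1.50 (SE 0.21). The departure from the sum was -0.42 (SE 0.29), and it was -0.05 without decitabine replicate 2.

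NAALADL2 (ENSG00000177694.16, chr3:174438573-175810548, plus strand) stood at 0.509 ± 0.028 CPM per kb (SD, n = 2). Its levels were 7.16 and 6.62 CPM with vehicle, 5.29 and 5.83 with decitabine, 3.83 and 4.96 with talazoparib, and 3.04 and 2.13 with the combination. The 4 arms did not overlap and kept the same order as in SHH. Means were 80.6%, 63.7% and 37.6% of vehicle, with log2 fold changes of -0.31 (SE 0.18), -0.64 (SE 0.18) and -1.43 (SE 0.19). The departure from the sum was -0.48 (SE 0.27), and it was -0.73 or -0.22 without combination replicate 1 or 2, the second of which carried leukocyte transcripts.

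KCNK12 (ENSG00000184261.5, chr2:47509290-47570985, minus strand) had the lowest level per length at 0.254 ± 0.050 CPM per kb (SD, n = 2). It gave 4.05 and 3.07 CPM with vehicle, 2.26 and 2.86 with decitabine, 2.80 and 2.05 with talazoparib, and 1.46 and 1.07 with the combination. The single-agent arms overlapped each other, and the combination lay below both. Means were 71.9%, 68.2% and 35.5% of vehicle, with log2 fold changes of -0.48 (SE 0.24), -0.57 (SE 0.24) and -1.51 (SE 0.26). The departure from the sum was -0.46 (SE 0.36). With each library left out in turn it ran from -0.68 (without combination replicate 1) to -0.23 (without talazoparib replicate 1), the decitabine change from -0.66 (without decitabine replicate 2) to -0.27 (without vehicle replicate 1), and the talazoparib change from -0.80 to -0.35 (without talazoparib replicate 1 and 2).

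**Figure D1:**
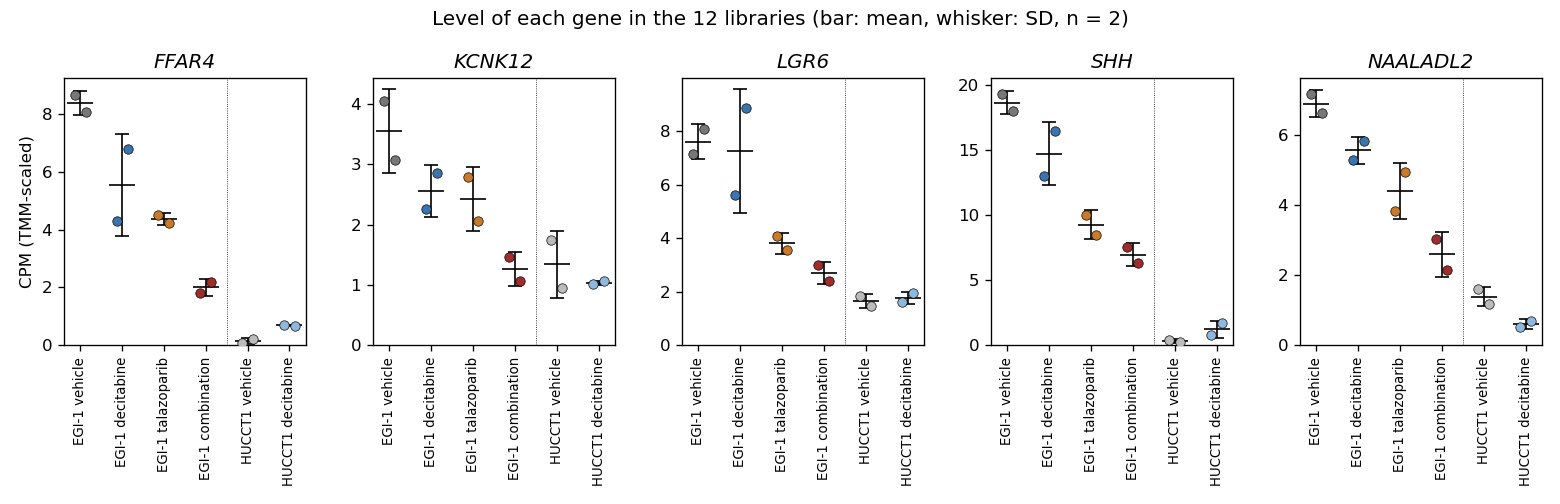
TMM-scaled CPM of each gene in the 12 libraries, 1 panel per gene with its own axis from 0, with points for libraries, a bar for the mean and whiskers for the SD (n = 2). In EGI-1 the combination libraries are the lowest of each panel, for SHH at 7.54 and 6.30 CPM against 19.2 and 18.0 CPM with vehicle, whereas HUCCT1 libraries stay under 2 CPM.

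Across EGI-1, both decitabine libraries lay below both vehicle libraries in 4 of the 5 genes, LGR6 being the exception, where 18.4% of all genes tested did so and 20.2% lay above. Both talazoparib libraries lay below vehicle in 5 of 5, against 24.4% of all genes, while 24.9% lay above. Every one of these comparisons shares the vehicle libraries used in the choice, so the counts are a description. Setting the combination against talazoparib, which shares the combination libraries, gave -1.11 for FFAR4, -0.94 for KCNK12, -0.79 for NAALADL2, -0.49 for LGR6 and -0.41 for SHH. Against decitabine the values were -1.45 for FFAR4, -1.42 for LGR6, -1.11 for NAALADL2, -1.09 for SHH and -1.03 for KCNK12. LGR6 and SHH had most of their decrease in talazoparib alone, and FFAR4 and KCNK12 were lower by a further log2 unit or nearly so once decitabine was added.

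The comparison of talazoparib with decitabine in EGI-1 asks which single agent gave the lower level, and it uses none of the libraries that chose the genes, although the vehicle and combination libraries enter the shared estimate of the spread. LGR6 and SHH were lower with talazoparib: LGR6 by a log2 fold change of -0.93 (SE 0.20, edgeR adjusted p = 0.0335) and SHH by -0.67 (SE 0.14, edgeR adjusted p = 0.0218). These 2 of 5 genes stand beside 0.946% of all genes tested that were called in either direction 0.594% that were called lower and 0.353% that were called higher. NAALADL2 gave -0.33 (SE 0.18), FFAR4 -0.34 (SE 0.20) and KCNK12 -0.09 (SE 0.25), with edgeR adjusted p of 0.601, 0.607 and 0.948. Both talazoparib libraries lay below both decitabine libraries in LGR6, SHH and NAALADL2, 3 of 5, against 18.5% of all genes, while 18.9% lay above. The median log2 fold change over all genes was -0.00.

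Both calls depended on the libraries and the fit. When only the 4 libraries compared were fitted, the edgeR adjusted p was 0.194 for LGR6 and 0.148 for SHH. Leaving out vehicle replicate 1 or 2, decitabine replicate 2 or talazoparib replicate 1 or 2 also ended both calls, with log2 fold changes from -1.24 to -0.56 for LGR6 and from -0.84 to -0.49 for SHH over all libraries left out. The direction was the same in 15 of 15 alternatives for each gene. Without the combination library that carried leukocyte transcripts, the edgeR adjusted p was 0.0421 for LGR6 and 0.0229 for SHH.

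**Figure D2:**
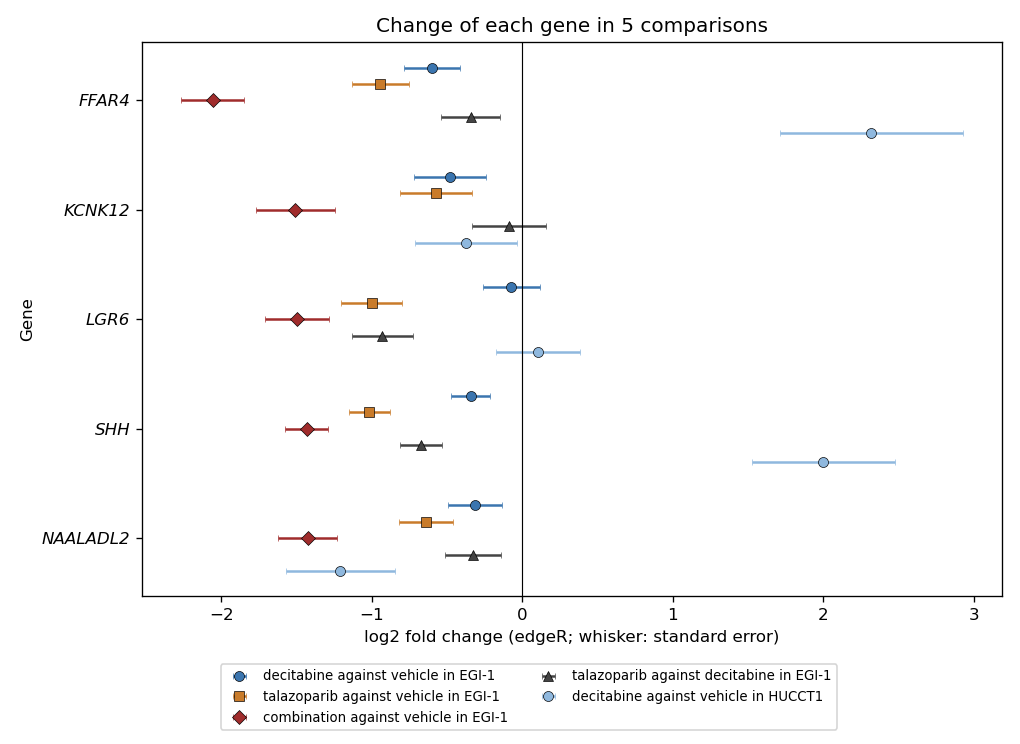
Log2 fold change of each gene in 5 comparisons (points, edgeR) with its standard error (whiskers). The EGI-1 comparisons with vehicle lie left of 0 for each gene, while decitabine in HUCCT1 gives 2.32 for FFAR4, 2.00 for SHH and -1.21 for NAALADL2.

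In HUCCT1, NAALADL2 fell with decitabine at 1 µM, and FFAR4 and SHH had more counts with decitabine than with vehicle, all at low levels. HUCCT1 shares no library with the choice, but its dose was higher than in EGI-1, so the lines are set side by side only. FFAR4 had 2 and 7 counts with vehicle (0.0599 and 0.207 CPM) and 25 and 22 with decitabine (0.703 and 0.663 CPM). Decitabine libraries lay above vehicle with no overlap, at a log2 fold change of 2.32 (SE 0.61). SHH, the hedgehog ligand, had 13 and 7 counts with vehicle (0.389 and 0.207 CPM) and 27 and 55 with decitabine (0.759 and 1.66 CPM). Its arms did not overlap either, at 2.00 (SE 0.48). FFAR4 and SHH passed the filter on low counts through the decitabine arm alone, with 0 and 1 vehicle libraries at or above its cut of 0.292 CPM. FFAR4 thus had to be higher with decitabine, while for SHH the filter favoured a rise without forcing it. The filtered test is not given for either gene. In the fit with no filter on low counts, the edgeR adjusted p was 0.00160 for FFAR4 and 9.23e-05 for SHH. With both agents absent, SHH in HUCCT1 was at 0.298 ± 0.129 CPM against 18.6 ± 0.9 CPM in EGI-1 (SD, n = 2 in each), levels set across lines that were scaled separately.

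NAALADL2 had 53 and 40 counts with vehicle (1.59 and 1.19 CPM) and 18 and 23 with decitabine (0.506 and 0.693 CPM). Both decitabine libraries lay below both vehicle libraries, at a log2 fold change of -1.21 (SE 0.36, edgeR adjusted p = 0.0114). KCNK12 was at 1.74 and 0.948 CPM with vehicle and 1.01 and 1.05 with decitabine, and LGR6 at 1.83 and 1.45 against 1.60 and 1.93. In both genes the arms overlapped, with log2 fold changes of -0.38 (SE 0.34, edgeR adjusted p = 0.435) and 0.11 (SE 0.28, edgeR adjusted p = 0.813). Of the 3 genes that did not enter through the decitabine arm, NAALADL2 was thus called and KCNK12 and LGR6 were not, where 33.5% of the 22479 genes tested in HUCCT1 were called, 19.6% higher and 13.9% lower. Over all genes tested, the decitabine libraries lay above vehicle with no overlap in 33.9% and below in 31.3%.

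Under DESeq2 the adjusted p was 0.0271 for SHH, 0.0623 for FFAR4 and 0.125 for NAALADL2. The NAALADL2 call ended without vehicle replicate 1 or decitabine replicate 1, with edgeR adjusted p of 0.121 and 0.0758. Leaving out a library moved the log2 fold change of FFAR4 between 1.68 (without vehicle replicate 1) and 3.42 (without vehicle replicate 2), and that of SHH between 1.34 (without decitabine replicate 2) and 2.50 (without vehicle replicate 1).

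The other genes of each pathway were counted in lists of 79 genes, the 5 genes left out, chosen by family and pathway membership. In EGI-1, 47 were tested for the combination against vehicle, and 9 rose and 5 fell, where 11.1% of all genes tested rose and 7.61% fell. Their median was 0.03 beside -0.02 over all genes. Without combination replicate 2 the counts were 5 higher and 4 lower. In talazoparib against decitabine edgeR and DESeq2 each called 0 of the 47, and 7 had an unadjusted edgeR p under 0.05. In HUCCT1, 48 were tested, and 19 rose and 8 fell, where 19.6% of all genes tested rose and 13.9% fell. The 19 include SCUBE1, NKD1, FZD9, APCDD1, HCAR1, HCAR2, HCAR3 and TFR2, which lay below the filter's cut with vehicle. They passed the filter through the decitabine arm alone, so the filter favoured their rise and their filtered tests are not given. The median over the 48 tested genes, these included, was 0.20 beside 0.00 over all genes.

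In the hedgehog list, 4 of 16 tested genes rose and 1 fell with the combination in EGI-1. HHAT, the acyltransferase that palmitoylates the ligand, rose by 0.95 (edgeR adjusted p = 2.1e-05), and DISP1, which releases the ligand from the cell, fell by 0.40 on the log2 scale (edgeR adjusted p = 0.0477). The transducer SMO rose by 0.31 (edgeR adjusted p = 0.0358). The transcription factor GLI2 rose by 1.33 (edgeR adjusted p = 0.0116) from 17 and 12 counts with vehicle. The target and receptor PTCH1 stood at -0.03, the target GLI1 had at most 6 counts in any EGI-1 library, and GLI3 was listed at 0 counts, where a count of 0 allows up to 3. In HUCCT1, 4 of 14 rose and 2 fell. SCUBE1, among those that rose, passed the filter through the decitabine arm alone, which favoured its rise. SMO had at most 4 counts in any HUCCT1 library, and GLI2 fell by 0.92 on the log2 scale (edgeR adjusted p = 1.9e-06) from 98.1 CPM with vehicle.

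In the list around LGR6, 2 of 19 tested genes rose and 3 fell with the combination. The R-spondin receptor LGR4 fell by 0.29 (edgeR adjusted p = 0.00492), the ubiquitin ligase RNF43 by 0.76 (edgeR adjusted p = 0.0174) and the Wnt co-receptor LRP5 by 0.37 on the log2 scale (edgeR adjusted p = 0.000707). The receptor FZD7 rose by 0.55 (edgeR adjusted p = 0.000553). The transcription factor LEF1, which T cells also express, rose by 1.62 (edgeR adjusted p = 0.00120), with 46 and 55 counts with vehicle and 88 and 214 with the combination, the last in the library with leukocyte transcripts. The ligand RSPO3 was at 105.7 CPM in vehicle-treated EGI-1 cells and at 0 counts in each HUCCT1 library, and the sister receptor LGR5 had at most 10 counts in any EGI-1 library. In HUCCT1, where LGR6 was not called, 5 of 18 rose and 6 fell. Among those that rose, FZD9, NKD1 and APCDD1 passed the filter through the decitabine arm alone, which favoured their rise. LGR4 fell by 0.44 on the log2 scale (edgeR adjusted p = 0.00240). Of the Wnt targets, AXIN2 rose by 2.02 (edgeR adjusted p = 8.7e-08), while SP5 fell by 0.97 on the log2 scale (edgeR adjusted p = 0.00721). NKD1 was higher by 2.57 on the log2 scale from 4 and 3 counts with vehicle, and it passed the filter through the decitabine arm alone.

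Of the fatty acid receptor list, 5 genes were tested in EGI-1. The lactate receptor HCAR1 fell by 0.72 on the log2 scale (edgeR adjusted p = 0.00182) and the G protein subunit GNA11 rose by 0.23 (edgeR adjusted p = 0.0366). The other free fatty acid receptors had at most 5 counts (FFAR1), 2 counts (FFAR2) and 0 counts (FFAR3) in any EGI-1 library. In HUCCT1, 5 of 7 rose, with a list median of 1.22, but HCAR1, HCAR2 and HCAR3 among them passed the filter through the decitabine arm alone. HCAR1 had 3 counts in each vehicle library and a log2 fold change of 4.27 there. Like FFAR4, it was lower with the combination in EGI-1 and could enter the HUCCT1 test only by being higher with decitabine. ARRB2, the arrestin that FFAR4 binds, rose by 1.22 in HUCCT1 (edgeR adjusted p = 2.8e-07).

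Among the two-pore-domain potassium channels, KCNK6 rose by 0.98 with the combination (edgeR adjusted p = 1.1e-06), from 17.5 and 17.7 CPM to 33.6 and 35.9 CPM, while KCNK12 lay at 35.5% of vehicle. Neither of KCNK1 (-0.09) and KCNK5 (-0.18) passed the test, and KCNK13, the closest relative of KCNK12, was at 0 counts in EGI-1. In HUCCT1, 3 of 5 rose. In the family of NAALADL2, 2 relatives were tested in EGI-1. TFRC, the transferrin receptor, rose by 0.21 (edgeR adjusted p = 0.0202) and NAALAD2 gave -0.10. FOLH1 had at most 1 count in any EGI-1 library. In HUCCT1, 2 of 4 relatives rose, NAALADL1 by 1.89 (edgeR adjusted p = 0.000295) and TFR2 by 3.71. TFR2 was at a mean of 0.0298 CPM with vehicle there and passed the filter through the decitabine arm alone.

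**Figure D3:**
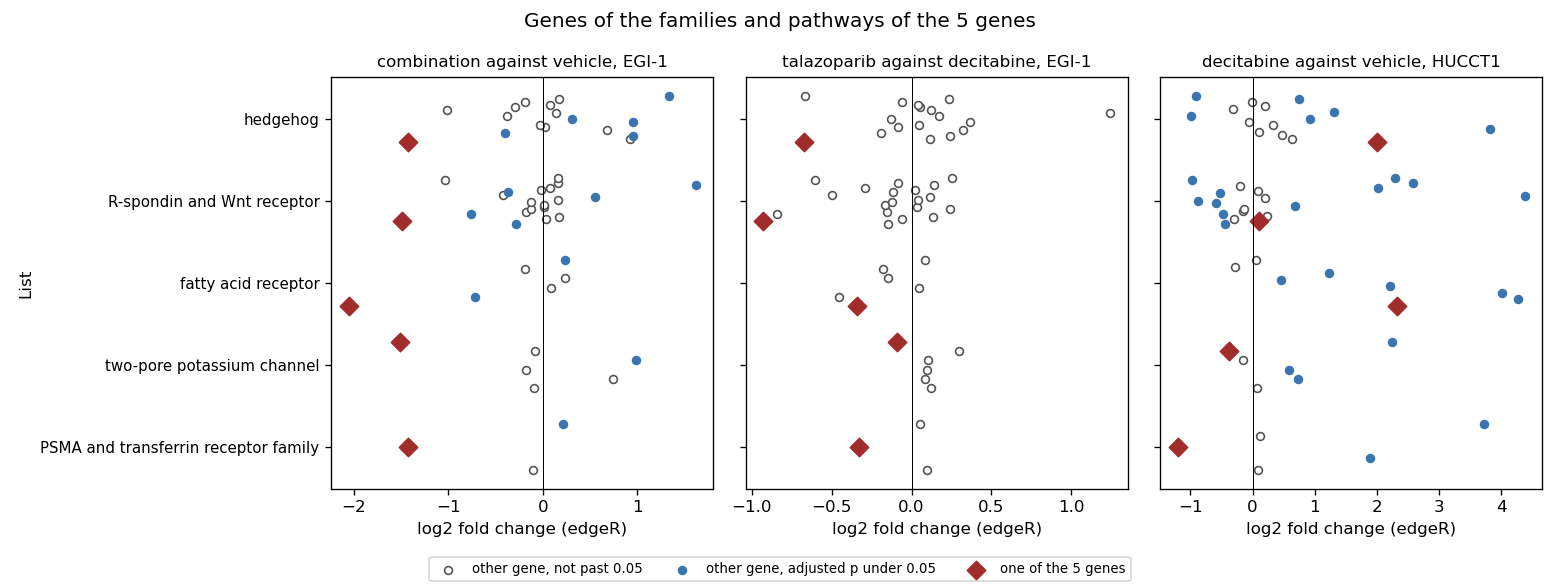
Log2 fold change (edgeR) of the genes of 5 lists in 3 comparisons, with filled circles for other genes past an adjusted p of 0.05, open circles for those not past it and red diamonds for the 5 genes, spread vertically only for legibility. In the first panel the diamonds lie left of the other genes of their lists because they were chosen there, and in HUCCT1 FFAR4 (2.32) and SHH (2.00) lie right of 0.

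Position gave no common feature. The genes lie on different chromosomes, with lengths of 12.5 kb (SHH), 37.8 kb (FFAR4), 61.7 kb (KCNK12), 126.0 kb (LGR6) and 1372.0 kb (NAALADL2), where the median coding gene has 27.5 kb and NAALADL2 is longer than 99.9% of coding genes. Among 183 tested coding genes of at least 500 kb, 39 (21.3%) were called lower with the combination, at a median of -0.11, beside 14.1% of coding genes of 100 to 500 kb, 8.94% of 50 to 100 kb, 8.17% of 10 to 50 kb and 8.47% of under 10 kb. The nearest tested coding neighbours with the combination were CEP55 (0.32) and PDE6C (-1.07) around FFAR4, EPCAM (0.00) and MSH6 (-0.29) around KCNK12, PTPN7 (2.64) and UBE2T (-0.13) around LGR6, RBM33 (-0.17) and RNF32 (-0.20) around SHH, and ECT2 (-0.14) and TBL1XR1 (-0.31) around NAALADL2. MSH6 and TBL1XR1 fell (edgeR adjusted p = 0.00178 and 0.00812), and CEP55 rose (edgeR adjusted p = 0.00832). PTPN7, a leukocyte phosphatase, had at most 29 counts in any EGI-1 library, the highest in the library with leukocyte transcripts. With vehicle it was at a mean of 0.126 CPM, below the filter's cut of 0.365 CPM in EGI-1. It passed the filter through treated libraries, which favoured a rise, so its filtered test is not given.

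Some of the genes share their locus with others, and the counting is not stated to use strand, so reads of opposite-strand partners cannot be told apart. FFAR4 overlaps RBP4, the retinol carrier, on the other strand with 0 exonic bases in common. RBP4 gave 0.64 with the combination (edgeR adjusted p = 0.101). With decitabine in HUCCT1 it was higher by 5.85, with counts from 1 to 189, in the comparison in which FFAR4 had a log2 fold change of 2.32. Its part in the FFAR4 counts was not tested. The antisense RNAs of NAALADL2 had at most 6 counts in any EGI-1 library.

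The genes whose profiles were most like these were found over the 8 EGI-1 libraries among 13785 genes with an average of at least 1 log2 CPM, by the root mean square difference of centred log2 CPM. For SHH these were LINC01559 (0.133), SYT8 (0.146) and MAP2K6 (0.155), and for LGR6 MUC5AC (0.148), ENSG00000261578 (0.155) and SHH (0.155). Histone genes came nearest to FFAR4 with H1-3 (0.192), H3C13 (0.212) and H3C10 (0.228), and to KCNK12 with H2AC25 (0.185), ahead of STS (0.196) and HELLPAR (0.200). NAALADL2 was near STS (0.141) and H4C13 (0.163). Between the 5 genes themselves Pearson's r over the 8 libraries ran from 0.855 (KCNK12 and LGR6) to 0.975 (LGR6 and SHH). These values share the libraries and the choice of the genes and are a description. Under decitabine in HUCCT1 the log2 fold changes of SHH and its near genes were 2.00 for SHH, 1.78 for LINC01559, 0.17 for SYT8 and -3.23 for MAP2K6.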

How the data were processed

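RNA sequencing was analysed in 8 EGI-1 and 4 HUCCT1 libraries. The authors deposited raw counts per gene, with no normalization. The methods name fastp, STAR and RSEM on GRCh38 for EGI-1, whereas the submitters' processing notes name fastp, Trim Galore, HISAT2 and featureCounts. The counts are whole numbers in a layout like that of featureCounts, so the counter is not settled. The methods name a stranded library kit for EGI-1, but the strand setting of the counter, its treatment of multi-mapped reads and its annotation are not given in the sources used here. Names of the talazoparib libraries carry a number other than the stated dose. Symbols were matched for 60437 of 60651 identifiers (GENCODE 44, GRCh38), and the 214 others were named by identifier.

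Counts were fitted in edgeR 4.0.16 (R 4.3.3) with TMM scaling, filterByExpr by arm and the robust quasi-likelihood test, with all 8 EGI-1 libraries together (22406 genes) and the 4 HUCCT1 libraries apart (22479 genes), and p-values were adjusted over all genes tested by the Benjamini-Hochberg method. The 5 genes passed the filter in both lines. The fit was tested on simulated data with 100 genes changed 2-fold and 100 changed 1.5-fold. For talazoparib against decitabine in EGI-1 it recovered 58 and 46 of these, with 11 false calls. For decitabine in HUCCT1 it recovered 57 and 43, with 15 false calls. Changes of these sizes were thus often missed. DESeq2 1.42.0, other scalings, other filters, replicate blocks and leaving out each library were tried as alternatives. CPM divide counts by TMM-scaled totals, and CPM per kb divide further by the union of exons. Levels of a few counts per library are imprecise at these depths.

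The 5 genes and all lists were chosen with earlier results of these data known. Genes were named if they were among the 5, in a pathway list, next in the ranking, overlapping, adjacent or among the 3 nearest profiles of each gene. Comparisons that share the vehicle or combination libraries of EGI-1 are given for the 5 genes as log2 fold change and SE with no test. Replicates of an arm differed by more than sampling noise (chi-square per gene 2.73 to 12.6), so none was merged. Promoter windows are from RefSeq. Some items that these rules would name are not reported here.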

Additional observations from a re-analysis of the deposited data

Results flagged for a closer look

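With decitabine, FFAR4 and SHH lay below vehicle in EGI-1 and above vehicle in HUCCT1, with no overlap of libraries in either line. Among all genes tested, 18.4% lay below in this way in EGI-1 and 33.9% above in HUCCT1. FFAR4 and SHH passed the HUCCT1 filter on low counts through the decitabine arm, which favoured a rise there. For FFAR4 the log2 fold change was -0.60 in EGI-1 at 0.5 µM and 2.32 in HUCCT1 at 1 µM. For SHH it was -0.34 in EGI-1 and 2.00 in HUCCT1. The difference between the lines was not tested, because the EGI-1 value shares the vehicle libraries by which the genes were chosen, and the dose differs between the lines. FFAR4 and SHH were also far lower in HUCCT1, with at most 7 and 13 counts in a vehicle library, against 251 and 556 counts in the highest EGI-1 library.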

How the results depend on the processing

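For talazoparib against decitabine in EGI-1, 2 of the 5 genes were called, and the number was 0 with only the 4 libraries compared, 0 with the replicate number as a block, 1 with the library name series as a block, and 0 to 2 without each library. The numbers did not pair the samples (correlations of deviations -0.07 to 0.06 in EGI-1 and 0.11 in HUCCT1), and the replicate block left the NAALADL2 call in HUCCT1 in place. All genes called in that comparison numbered 212, and 444 with no filter, 79 with the 4 libraries, 119 with the replicate block and 76 to 494 without each library. Pathway genes called there numbered 0 in either direction, and 1 lower with no filter, 0 to 3 higher and 0 to 1 lower without each library. With the combination against vehicle 9 pathway genes were higher and 5 lower, and 3 lower under DESeq2, and 4 to 9 higher and 2 to 6 lower without each library, where all genes called ran from 1850 to 5288 around 4194. In HUCCT1, FFAR4 and SHH are left out of the count because they entered through the decitabine arm. NAALADL2 was the only call among the other genes, where 33.5% of all genes tested were called. That call ended under DESeq2 and without vehicle replicate 1 or decitabine replicate 1. Without a minimum average, 0 of the 5 genes were among the 5 largest decreases. Values near 0 changed sign without a library: for talazoparib against decitabine FFAR4 ranged from -0.65 to 0.024 and KCNK12 from -0.31 to 0.13, with 0.091 without decitabine replicate 2, and in HUCCT1 KCNK12 ranged from -0.76 to 0.11 and LGR6 from -0.061 to 0.26, with -0.035 without decitabine replicate 2. Apart from the smaller number of libraries or the larger number of genes tested, the cause was not tested. With 1 library left in an arm, that library is assumed to vary like the other arms. The other scalings (DESeq2 size factors, upper quartile) changed no direction or call of the 5 genes in the tested comparisons. The 3 nearest profiles of each gene were found again with a prior count of 0.5. Depth limits FFAR4 and SHH in HUCCT1.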
